A study of Mus musculus with 12 samples.

Results

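The genes of the transforming growth factor beta (TGF-beta) and bone morphogenetic protein (BMP) pathway were read across the liver and the lung of newborn wild-type (WT, Man1a2+/+) and null (Man1a2-/-) mice. Members were chosen by symbol as 43 genes of 24421 rows in each count table, and all 43 were found. They comprise 3 TGF-beta ligands, 6 BMP ligands, 3 activin and inhibin subunits, 6 type I receptors, 4 type II receptors, 2 co-receptors, 5 genes of latent TGF-beta binding and activation, 7 ligand antagonists with the pseudoreceptor Bambi among them, 3 ID target genes and 4 intracellular repressors. Polyadenylated RNA was sequenced from 3 pups of each genotype, which gave 12 libraries, 3 for each genotype and tissue. The pups came from heterozygous parents of the line Man1a2tm1.1Ahe and were killed within an hour of birth, and no treatment was given. Null pups lack exon 2 of Man1a2, a Golgi mannosidase that trims N-linked glycans, inherited through the germ line and so not limited to a cell type. The line is known for fatal respiratory failure at birth. All values come from whole organs.

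TGF-beta, BMP and activin ligands are secreted dimers that assemble type II and type I receptor kinases at the cell surface. The activated type I receptor phosphorylates SMAD proteins, which enter the nucleus and regulate target genes such as the ID genes. Ligands are held in check by secreted antagonists that bind them, by latent binding proteins that store TGF-beta in the matrix, by pseudoreceptors without a kinase, and by intracellular repressors. In the liver the pathway is known for hepatic stellate cell activation, for BMP control of iron balance and for activin control of hepatocyte growth. In the lung it is known for airway branching, vascular development and alveolar formation.

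The count tables held 26759463 to 42914295 reads per library. Values are counts scaled to library size (CPM) with TMM factors over the 12 libraries, and 3 reads corresponded to 0.0542 to 0.127 CPM. Man1a2 stood at 87.7, 53.3 and 68.7 CPM in WT liver and at 50.6, 49.1 and 50.4 CPM in null liver. In lung it stood at 105, 76.3 and 109 CPM in WT and at 41.5, 50.0 and 51.6 CPM in null. The counts are summed over the whole gene, so reads of the exons that remain are included. Hepatocyte markers such as Alb were high in all 6 liver libraries. The library labelled null lung 1 had fewer reads of alveolar and endothelial markers than the other 5 lung libraries, while its 6 multiciliated cell markers summed to 111 CPM against 48.0 to 100 CPM. Its 6 alveolar type 1 cell markers summed to 819 CPM against 2269 to 3187 CPM in the other lungs. Its 6 alveolar type 2 cell markers, the surfactant genes among them, summed to 80.5 CPM against 18193 to 24660 CPM in the other lungs. Its 8 skeletal and cardiac muscle markers summed to 14950 CPM against 170 to 478 CPM, and its 6 smooth muscle markers to 2714 CPM against 353 to 628 CPM. Its 6 general endothelial markers summed to 638 CPM against 1680 to 2520 CPM. The library null liver 1 kept its hepatocyte markers, but its muscle markers summed to 6683 CPM against 3.62 to 5.01 CPM in the other 5 livers. Its 6 lung fibroblast markers summed to 637 CPM against 122 to 170 CPM, of which the collagen gene Col1a1 gave 569 CPM, while Tcf21 and Wnt2 were not raised in it. Mfap5 was raised, at 18.3 CPM against 0.0712 to 0.892 CPM, and Pdgfra was also highest in it. Without Col1a1, null liver 1 still had the highest fibroblast sum, at 68.5 CPM against 42.1 to 57.5 CPM in the other livers. Its 7 hepatic stellate cell markers summed to 662 CPM against 270 to 379 CPM, of which Des, also a muscle gene, gave 427 CPM. Without Des the stellate sum of null liver 1, 235 CPM, was below that of every other liver (256 to 365 CPM). Results on null samples are therefore given with and without these 2 libraries. In whole tissue, fewer cells of a type and less RNA per cell cannot be told apart.

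The members themselves set these 2 libraries apart. Grem1, a secreted BMP antagonist, stood at 5.10 CPM in null lung 1 against 0.122 and 0.0758 CPM in null lung 2 and 3. Bmp7 stood at 27.3 CPM against 4.21 and 2.65 CPM. Fst, the activin-binding protein follistatin, stood at 33.5 CPM against 5.55 and 7.51 CPM. In the opposite direction, Acvrl1, the endothelial type I receptor also called ALK1, stood at 33.9 CPM against 332 and 313 CPM. Of the members with the largest ratios in null liver 1, Nog stood at 1.14 CPM against 0.142 and 0.127 CPM in the other null livers, and Ltbp3 at 23.6 CPM against 9.0 and 9.72 CPM.

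**Figure D1:**
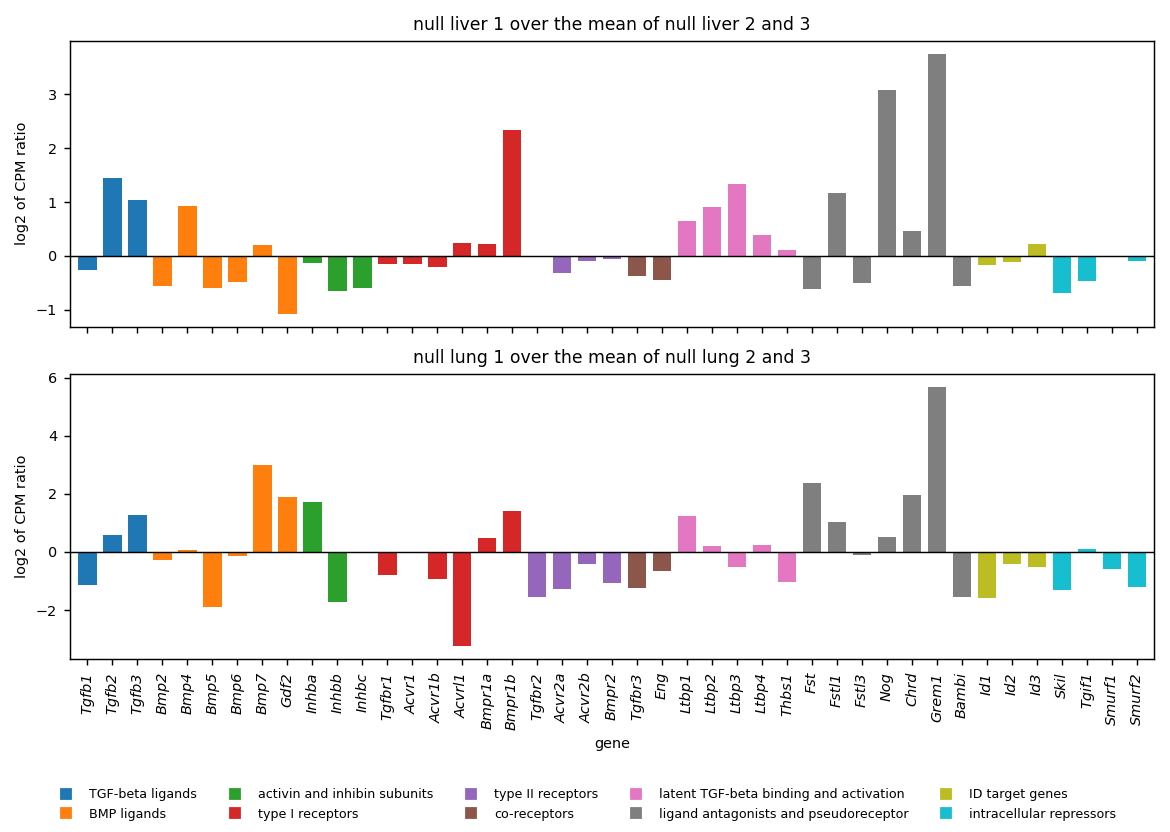
Each bar gives, for 1 of the 43 genes coloured by role, the log2 of the CPM in null liver 1 (upper panel) or null lung 1 (lower panel) over the mean CPM of the other 2 null libraries of that tissue. Inhbc has no bar in lung because null lung 1 held no read of it. Ratios of Grem1, Nog, Bmpr1b and, in lung, Gdf2 rest on few reads. In lung the ratio reached 51.6 for Grem1 and fell to 0.105 for Acvrl1, while Fstl3 stood at 0.942.

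The sequences upstream of the 3 genes with the largest called differences between null and WT liver that RefSeq promoter records cover are shown here, because these genes carry the liver result below. Each is the 250 bases before the RefSeq transcription start on GRCm38.p6 in the direction of the gene. Capitals mark matches to the SMAD box CAGAC or its reverse complement, the core letters that activated SMAD3 and SMAD4 are known to bind. Inhbb encodes the activin beta-B subunit, and its window lies at chr1:119422249-119422498 on the minus strand. Inhbc encodes the activin beta-C subunit of hepatocytes, and its window lies at chr10:127370549-127370798 on the minus strand. Fstl3 encodes a secreted protein that binds and blocks activins, and its window lies at chr10:79777024-79777273 on the plus strand.
Inhbb: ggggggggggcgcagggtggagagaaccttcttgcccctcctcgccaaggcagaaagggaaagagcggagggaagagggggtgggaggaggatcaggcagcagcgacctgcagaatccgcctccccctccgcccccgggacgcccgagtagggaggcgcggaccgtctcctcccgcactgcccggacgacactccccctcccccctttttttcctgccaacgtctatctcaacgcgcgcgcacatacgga
Inhbc: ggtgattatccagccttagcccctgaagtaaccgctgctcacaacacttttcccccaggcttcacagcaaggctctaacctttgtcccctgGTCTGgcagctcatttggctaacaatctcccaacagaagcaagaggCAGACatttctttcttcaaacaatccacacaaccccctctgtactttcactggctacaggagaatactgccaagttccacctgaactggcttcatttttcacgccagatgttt
Fstl3: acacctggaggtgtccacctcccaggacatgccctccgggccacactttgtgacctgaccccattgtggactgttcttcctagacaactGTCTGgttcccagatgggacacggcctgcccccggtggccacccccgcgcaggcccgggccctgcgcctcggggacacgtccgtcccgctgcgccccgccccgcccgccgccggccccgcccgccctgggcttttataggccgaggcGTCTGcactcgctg

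The Inhbb window, at a GC content of 68.0%, held no match to the SMAD box, while the Inhbc window, at 48.8%, and the Fstl3 window, at 71.2%, held 2 matches each. RefSeq records covered 32 of the 43 members. These 32 genes have 42 promoter windows, of which 23 (54.8%) held at least 1 match on either strand, beside 42.2% of all 32851 promoter windows. The letters GGCGCC, part of the GC-rich site of BMP-regulated SMADs, were found in 9 of the 42 (21.4%) beside 9.59% of all windows. The palindrome GTCTAGAC was found in 0 of the 42 beside 0.167% of all windows. Windows of 1 gene can overlap and are not independent. The 2 shorter motifs do not overlap each other. A match is a description of these letters and not evidence of binding.

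In WT pups, most of the members stood higher in lung than in liver. Of the 43 members, 36 were called different between WT lung and WT liver, 31 higher in lung and 5 lower. A gene was called where edgeR's quasi-likelihood test gave an adjusted p under 0.05 with a fold change of 1.2 or more. The same rule called 77.0% of all 15635 genes tested, 39.8% higher and 37.2% lower, so the number called was near the background. The median log2 fold change of the members was 1.64, against 0.04 over all genes. Fitting the liver and lung of the same number as a pair gave the same count of 36.

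**Figure D2:**
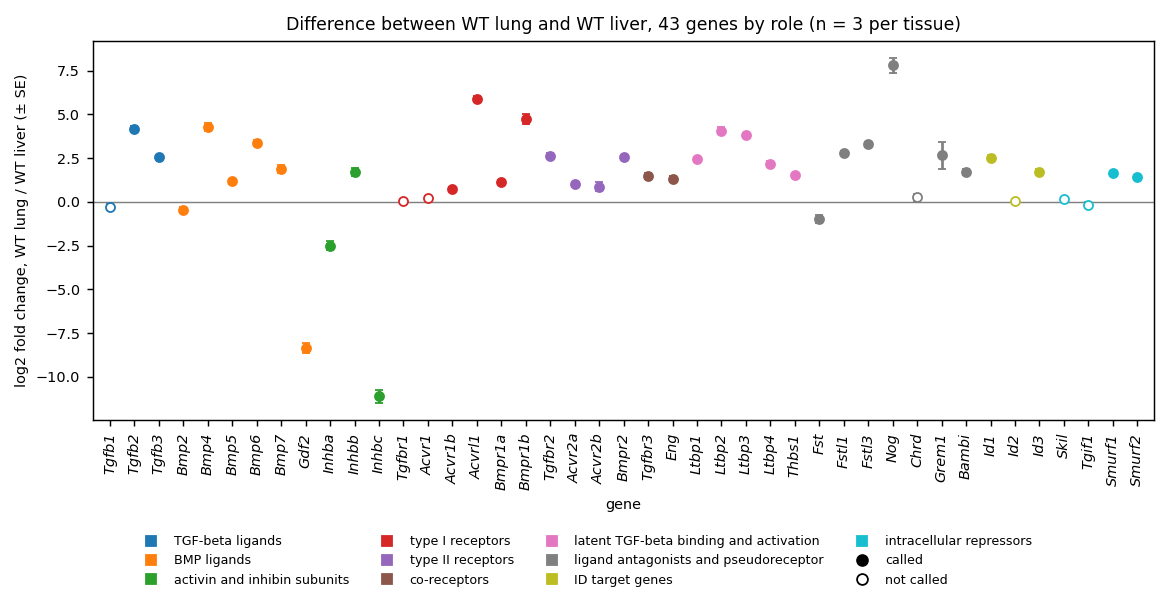
Each point gives the log2 fold change of 1 of the 43 genes between WT lung and WT liver (3 libraries each) with its standard error, coloured by role, and filled points were called. Most points lie above 0, with Inhbc, Gdf2 and Inhba far below it.

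Among the ligands, Tgfb2 stood at 52.3, 69.0 and 64.5 CPM in WT lung and at 3.16, 3.45 and 3.33 CPM in WT liver (log2 fold change 4.19, standard error 0.14, adjusted p = 9.61e-09). Tgfb3 was also higher in lung (log2 fold change 2.57), whereas Tgfb1, the most widely expressed isoform, did not pass the test (log2 fold change −0.32, standard error 0.17, adjusted p = 0.118). Bmp4, a mesenchymal ligand of lung branching, stood at 37.9, 28.4 and 35.1 CPM in lung and at 1.24, 2.43 and 1.54 CPM in liver (log2 fold change 4.26, standard error 0.22). Bmp5, Bmp6 and Bmp7 were higher in lung by log2 fold changes of 1.17, 3.35 and 1.89. Bmp2 was lower in lung (−0.44).

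Gdf2, which encodes BMP9, the circulating ligand made by the liver, was read at 61.5, 60.7 and 52.5 CPM in WT liver. In WT lung it stood at 0.325, 0.0532 and 0.112 CPM. That is 4761 reads in the liver libraries against 25 in the lung libraries, a ratio of 320 (95% exact interval 216 to 494, counting error only). The hepatocyte marker Alb stood at 303 CPM in WT lung 1 against 17.7 and 27.7 CPM in the other WT lungs. The part of such hepatocyte RNA in the few lung reads of Gdf2, and of Inhbc below, was not tested. The Acvrl1 values below are from the same libraries. Acvrl1, the type I receptor of BMP9, had the opposite order, with 436, 419 and 396 CPM in WT lung and 6.53, 7.58 and 6.45 CPM in WT liver (log2 fold change 5.90, standard error 0.13). Eng, the co-receptor endoglin that binds BMP9 on endothelium, was also higher in lung, by less (log2 fold change 1.31, standard error 0.15).

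The 3 activin and inhibin subunits differed in direction. Inhbc was read 3170 times in WT liver and 2 times in WT lung, a ratio of 2660 (95% exact interval 736 to 21971, counting error only). Inhba, the activin beta-A subunit, stood at 3.72, 4.58 and 3.22 CPM in WT liver and at 0.794, 0.505 and 0.739 CPM in WT lung (log2 fold change −2.51, standard error 0.25). Inhbb went the other way, at 3.12, 2.96 and 4.84 CPM in liver and 10.4, 15.0 and 11.8 CPM in lung (log2 fold change 1.73, standard error 0.22). The liver and lung values of all 3 subunits did not overlap. The share of all genes without such overlap was not computed, and 77.0% were called between these organs.

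Of the 6 type I receptors, 4 were higher in lung and none lower, and Tgfbr1 (log2 fold change 0.07) and Acvr1 (0.22) did not pass the test. All 4 type II receptors were higher in lung, with Tgfbr2 at a log2 fold change of 2.65 (standard error 0.13) and Bmpr2 at 2.59 (standard error 0.10). Tgfbr2 stood at 440, 447 and 510 CPM in WT lung and 70.1, 65.8 and 81.6 CPM in WT liver, while its partner Tgfbr1 stood at 90.6, 101 and 102 CPM in lung and 86.0, 92.5 and 94.5 CPM in liver. The Tgfbr1 values of the organs overlapped and those of Tgfbr2 did not, where the share of all genes without overlap was not computed. Bmpr1b, a type I BMP receptor of low level, was read 1065 times in WT lung and 23 times in WT liver, a ratio of 27.6 (95% exact interval 18.3 to 43.7, counting error only).

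All 5 genes of latent TGF-beta binding and activation were higher in lung, from a log2 fold change of 1.51 for Thbs1, a matrix protein that releases active TGF-beta, to 4.07 for Ltbp2. Ltbp3, which holds latent TGF-beta in the matrix, stood at 138, 145 and 121 CPM in WT lung and 8.09, 9.82 and 9.74 CPM in WT liver. Of the 7 antagonists, 5 were higher in lung and Fst was lower (log2 fold change −0.95, standard error 0.23). Nog, the secreted BMP antagonist noggin, was read 867 times in WT lung and 2 times in WT liver, a ratio of 258 (95% exact interval 71.3 to 2137, counting error only). Fstl3 stood at 21.8, 22.8 and 23.5 CPM in lung and 2.34, 2.07 and 2.37 CPM in liver (log2 fold change 3.29, standard error 0.13). Its exons are overlapped on the other strand by Prss57, and whether counting used the strand is not given. Prss57 stood at 0.134 to 0.213 CPM in WT lung and at 2.02 to 3.22 CPM in WT liver, the opposite order.

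Among the targets, Id1 and Id3, which block basic helix-loop-helix factors and are read as BMP targets, were higher in lung by log2 fold changes of 2.53 and 1.72. Id2 differed by 0.04 (standard error 0.09) and did not pass the test. Smurf1 and Smurf2, ubiquitin ligases that degrade receptors and SMADs, were higher by 1.64 and 1.43, and the SMAD co-repressors Skil (0.16) and Tgif1 (−0.15) did not pass the test. Of other genes of the pathway, 5 of 6 tested receptors and co-receptors and 16 of 19 tested target genes were higher in lung, beside 39.8% of all genes. Of 21 other extracellular regulators tested, 16 were higher and 3 lower. The other ligands were split, with 5 of 15 tested higher and 6 lower, beside 39.8% and 37.2% of all genes. Their median log2 fold change was −0.14.

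Levels between genes were compared per kilobase of exon. In WT liver the highest member was Id2, at 49.9 CPM per kb (SD 2.99, n = 3), followed by Id3 at 28.2, Id1 at 23.7, Eng at 23.1, Thbs1 at 23.0, Inhbc at 21.0 and Gdf2 at 19.5 CPM per kb. Inhbc and Gdf2 had SDs of 4.28 and 1.66 CPM per kb, so their order and that of Eng and Thbs1 was not resolved beyond the spread of 3 libraries. In WT lung the highest were Id1 at 140 CPM per kb (SD 18.8) and Fstl1, a follistatin-like glycoprotein, at 132 CPM per kb (SD 4.61), which did not differ beyond their spread, followed by Acvrl1 at 97.8 and Id3 at 94.8 CPM per kb. The highest ligand in lung was Bmp4 at 15.0 CPM per kb (SD 2.18), and Tgfb1, Tgfb2 and Tgfb3 stood at 9.50, 10.7 and 10.7 CPM per kb. In liver Tgfb1 stood at 11.6 CPM per kb, Tgfb3 at 1.76 and Tgfb2 at 0.572.

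In null pups, 29 of 42 members tested were called between lung and liver, 27 higher in lung and 2 lower, beside 45.8% of all genes, 24.2% higher and 21.6% lower. Without null lung 1 the count was 35 of 42, 30 higher and 5 lower, beside 60.7% of all genes, 31.2% higher and 29.6% lower. Gdf2 and Inhbc were lower in lung in both fits. Tgfb1, Inhba and Fst were lower in lung only in the fit without null lung 1, at log2 fold changes of −0.56, −1.68 and −1.37. Acvrl1 was higher in null lung by 4.87 with null lung 1 and by 5.38 without it.

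In the liver, of the members tested, null pups differed from WT pups most in the activin subunits Inhbb and Inhbc. Inhbb stood higher, Inhbc and Inhba lower, the activin-binding protein Fstl3 higher, and so did Bambi, a pseudoreceptor, and the repressors Skil, Tgif1 and Smurf1. Of 40 members tested, 11 were called, 7 higher and 4 lower. The same rule called 26.9% of all 14343 genes tested, 13.5% higher and 13.4% lower, so the count was at the background. Without null liver 1, 6 of 40 were called (Inhbb, Inhbc, Fstl3, Bambi, Skil and Tgif1), 5 higher and 1 lower, beside 23.8% of all genes, 11.9% in each direction. Upper-quartile scaling shifted the median log2 fold change of all genes from 0.02 to −0.09, and it called 4100 of all 14343 genes. With it, 3 members were called higher and 5 lower. The 3 were Inhbb, Fstl3 and Bambi, so the calls of Skil, Tgif1, Smurf1 and Tgfbr2 depended on the scaling. A replicate block joined WT and null livers that share only a number. With it Skil, Tgif1, Inhba and Acvr1 were not called and Acvr1b was, beside 3304 of all genes called. DESeq2 called 16 of 43, the same 11 with Bmpr2, Fstl1, Ltbp4, Nog and Tgfb3, and of the 16 it gave 12 as higher and 4 as lower, beside 12.6% and 11.4% of all genes. Leaving out WT liver 1, 2 or 3 left 4, 2 and 3 members, beside 2150, 2268 and 1641 of all genes. Leaving out null liver 3 left 7, beside 3170, and leaving out null liver 2 left 10, beside 3395. With all libraries 3856 genes were called. Inhbb and Inhbc were called in all 6 fits that each left out 1 library. WT liver 2 held 40.2 CPM of the surfactant gene Sftpc against 0.142 to 5.66 CPM in the other livers, and the part of this in the result was not tested.

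**Figure D3:**
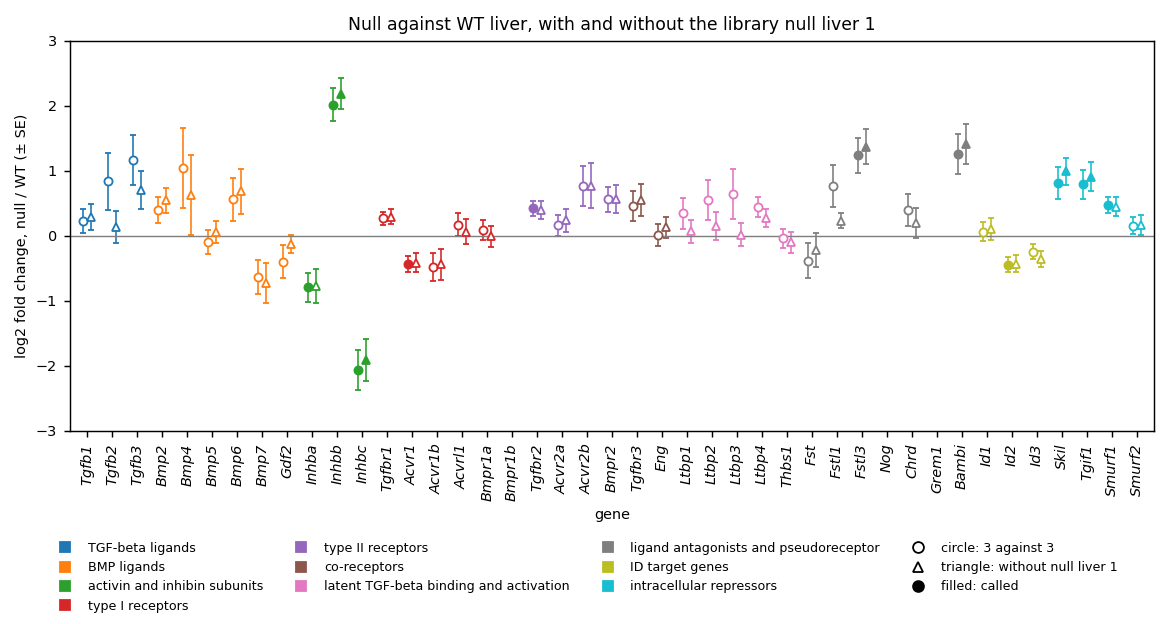
Points give the log2 fold change of null over WT liver with its standard error for each member by role, as circles for 3 libraries against 3 and as triangles without null liver 1, and filled points were called. Bmpr1b, Nog and Grem1 had too few reads to be tested. Inhbb and Inhbc lie near 2 and −2 in both fits.

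Inhbb stood at 3.12, 2.96 and 4.84 CPM in WT liver and at 10.7, 16.6 and 16.9 CPM in null liver. Every null library was above every WT library, and the lowest null value was that of null liver 1. The mean rose from 3.64 ± 1.04 to 14.7 ± 3.51 CPM (SD, n = 3) (log2 fold change 2.02, standard error 0.26, adjusted p = 0.00343). Without null liver 1 it was 2.19 (adjusted p = 0.00210), and leaving out any single library kept the call, at 1.89 to 2.28.

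Inhbc stood at 31.0, 46.9 and 39.1 CPM in WT liver and at 6.90, 14.4 and 6.43 CPM in null liver. None of the null values reached the lowest WT value. The mean fell from 39.0 ± 7.96 to 9.26 ± 4.5 CPM (SD, n = 3) (log2 fold change −2.07, standard error 0.31, adjusted p = 0.00512), and any library left out kept the call. The exons of Inhbc are overlapped on the other strand by the predicted gene Gm47200. Inhba, at a lower level, stood at 3.72, 4.58 and 3.22 CPM in WT and 2.06, 2.03 and 2.49 CPM in null liver (log2 fold change −0.80, standard error 0.23, adjusted p = 0.0380). That call was lost without null liver 1 (−0.77, adjusted p = 0.0648) and without any other single library. Inhbe, the other hepatocyte activin subunit and not a member, had 115, 128 and 142 CPM in WT and 1.42, 12 and 22.9 CPM in null liver (log2 fold change −3.42, standard error 0.75, adjusted p = 0.0161).

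None of the 9 TGF-beta and BMP ligands tested was called in liver by edgeR with all libraries, whereas DESeq2 called Tgfb3, and edgeR called Tgfb3 and Bmp4 without null liver 2. Tgfb3 stood at 6.45, 6.37 and 5.08 CPM in WT and 19.9, 6.58 and 12.9 CPM in null liver (log2 fold change 1.16, standard error 0.38, adjusted p = 0.0580), and it stood at 0.70 without null liver 1. Bmp4 was at 5.16, 0.854 and 4.57 CPM in null liver against 1.24 to 2.43 CPM in WT, with a standard error of 0.62 on a log2 fold change of 1.05. Gdf2 was at 25.5, 48.9 and 58.0 CPM in null liver against 52.5 to 61.5 CPM in WT, and its value in null liver 1 was the low one (log2 fold change −0.40, adjusted p = 0.276).

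Of the receptors, Acvr1, a type I receptor for BMPs and activins, stood at 18.9, 23.4 and 22.6 CPM in WT and at 14.8, 16.1 and 16.5 CPM in null liver (log2 fold change −0.44, standard error 0.12, adjusted p = 0.0339). Tgfbr2, the type II receptor of TGF-beta, stood at 70.1, 65.8 and 81.6 CPM in WT and at 96.8, 90.2 and 102 CPM in null liver (log2 fold change 0.42, standard error 0.12, adjusted p = 0.0339). The genotypes did not overlap for either gene, beside 45.7% of all genes tested. Without null liver 1 the adjusted p-values were 0.0736 and 0.0659, and leaving out 1 library at a time kept the call of Acvr1 in 1 of 6 cases and that of Tgfbr2 in 2. The other 7 receptors tested and both co-receptors did not pass edgeR's test with all libraries and no block. Bmpr2 had a log2 fold change of 0.56 (adjusted p = 0.0628) and Eng 0.01 (standard error 0.17). Acvr1b was called with the replicate block and without null liver 3, and Bmpr2 without null liver 2.

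Fstl3 stood at 2.34, 2.07 and 2.37 CPM in WT and at 4.16, 4.45 and 7.31 CPM in null liver. The mean rose from 2.26 ± 0.17 to 5.31 ± 1.74 CPM (SD, n = 3) (log2 fold change 1.24, standard error 0.27, adjusted p = 0.0152), and 1.37 without null liver 1 (adjusted p = 0.0109). Prss57, on the other strand, stood at 2.02, 2.56 and 3.22 CPM in WT and 3.70, 3.27 and 2.16 CPM in null liver, which overlapped. Bambi, which lacks a kinase and blocks receptor assembly, stood at 10.8, 7.99 and 7.55 CPM in WT and 15.9, 15.3 and 31.7 CPM in null liver (log2 fold change 1.26, standard error 0.31, adjusted p = 0.0223). The call of Fstl3 was lost when any WT liver library was left out, and that of Bambi without WT liver 2 or 3. Noggin (Nog) was too low for the edgeR fit of the liver libraries, but DESeq2 and the edgeR fit of all 12 libraries called it, with 39 reads in null liver, most of them in null liver 1, and 2 in WT liver. No other antagonist passed edgeR's test. Fstl1, which DESeq2 called, stood at 243 CPM in null liver 1 against 105 and 112 CPM in the other null livers.

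No gene of latent TGF-beta binding passed edgeR's test in liver, and DESeq2 called Ltbp4, which had a log2 fold change of 0.44 (adjusted p = 0.0718) in edgeR. Ltbp3 went from a log2 fold change of 0.64 with null liver 1 to 0.01 without it, Ltbp2 from 0.55 to 0.15, and Ltbp1 from 0.35 to 0.06. Thbs1 stood at −0.04 (standard error 0.14).

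Of the ID genes, Id2 stood at 113, 124 and 127 CPM in WT and at 84.4, 82.1 and 99.7 CPM in null liver. The mean fell from 122 ± 7.29 to 88.7 ± 9.56 CPM (SD, n = 3) (log2 fold change −0.44, standard error 0.11, adjusted p = 0.0266), and the adjusted p was 0.0513 without null liver 1. Leaving out 1 library kept the call of Id2 in 1 of 6 fits. Id1 (0.06, standard error 0.15) and Id3 (−0.25, standard error 0.12) did not pass the test. Skil stood at 79.1, 59.8 and 65.7 CPM in WT and at 84.9, 105 and 167 CPM in null liver (log2 fold change 0.81, standard error 0.24, adjusted p = 0.0422), and at 0.99 without null liver 1 (adjusted p = 0.0138). Its call was lost when any of the other 5 libraries was left out, with upper-quartile factors and with the replicate block. Tgif1 stood at 19.7, 18.7 and 17.1 CPM in WT and at 25.4, 25.5 and 44.4 CPM in null liver (log2 fold change 0.79, standard error 0.22, adjusted p = 0.0365), a call that was lost without any WT library. The highest value of Skil, Tgif1, Bambi and Fstl3 was in null liver 3. Smurf1 stood at 19.1, 16.9 and 19.9 CPM in WT and at 25.7, 23.7 and 27.5 CPM in null liver, with no overlap (log2 fold change 0.47, standard error 0.12, adjusted p = 0.0265), and its adjusted p was 0.0551 without null liver 1. Without null liver 2 it kept its call, and without any other single library it did not.

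Other genes of the pathway were counted from lists by role. Of 19 target genes tested, 6 were higher in null liver and none lower, beside 13.5% and 13.4% of all genes, with a median log2 fold change of 0.70, against 0.02 over all genes. They included Cyr61 (log2 fold change 2.35, standard error 0.46) and Ctgf (1.72, standard error 0.29), matricellular proteins, Junb (1.86), a transcription factor, Cdkn1a (1.33), a cell cycle inhibitor, and Fn1 (0.93), fibronectin. Without null liver 1, 5 of the 19 were higher, beside 11.9% of all genes, and the median fell to 0.05. Cyr61 stood at 36.3, 11.3 and 40.9 CPM in null liver against 4.54 to 7.10 CPM in WT. The inhibitory SMAD targets Smad6 (0.12, standard error 0.19) and Smad7 (0.20, standard error 0.26) did not pass the test. Of 8 SMAD genes, 4 were higher, beside 13.5% of all genes, and none lower, and 3 were higher without null liver 1, beside 11.9%. Of 4 other receptors and co-receptors tested, 1 (Rgma) was higher, beside 13.5% of all genes, and none was called without null liver 1. Rgma stood at 7.22 CPM in null liver 1, against 1.71 and 1.56 CPM in the other null livers. In WT liver it stood at 0.608 to 1.06 CPM. The hepatic stellate cell markers without Des summed to 329 and 365 CPM in null liver 2 and 3 against 256 to 266 CPM in WT liver and 235 CPM in null liver 1, and their part in these values was not tested.

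In the lung, no member was called when all 3 null libraries were used, and 22 were called without the library null lung 1. With 3 libraries against 3, 0 of 41 members tested passed edgeR's test. Of these, 10 had an unadjusted p under 0.05, and the share of all genes at that level was not computed. DESeq2 called 4 (Acvr1, Bmpr1a, Fstl3 and Tgif1), beside 12.1% of all genes. In the same edgeR fit 0.327% of all 15591 genes were called. Without null lung 1, 22 of 42 members tested were called, 12 higher and 10 lower, beside 37.0% of all 15885 genes, 18.0% higher and 19.0% lower. Leaving out any other single lung library gave 0 calls. The 2 null lungs that remained had smooth muscle markers summing to 353 and 370 CPM against 613 to 628 CPM in WT lung, and endothelial markers of 2031 and 2520 CPM against 1680 to 1991 CPM. The part of these in the values below was not tested. The fit without null lung 1 rests on 2 null libraries.

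**Figure D4:**
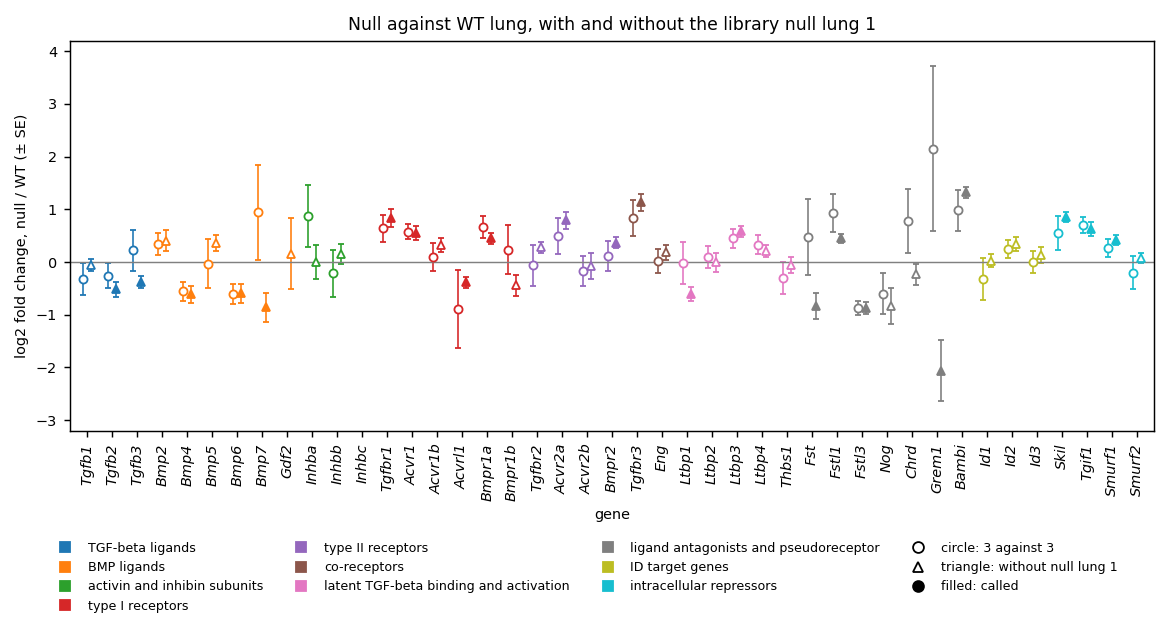
Points give the log2 fold change of null over WT lung with its standard error for each member by role, as circles for 3 libraries against 3 and as triangles without null lung 1, and filled points were called. No circle is filled, and the error bars of Bmp7, Acvrl1, Fst and Grem1 are long in the fit with null lung 1. Inhbc had too few reads to be tested, and Gdf2 was tested only without null lung 1.

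The 3 null lung libraries lay close together for Fstl3. It stood at 21.8, 22.8 and 23.5 CPM in WT lung and at 11.8, 12.7 and 12.4 CPM in null lung, so that null lung 1 did not stand apart. With all libraries it did not pass the test (log2 fold change −0.87, standard error 0.13, adjusted p = 0.0541), and without null lung 1 it did, at the same −0.87 (standard error 0.12, adjusted p = 0.00198). Prss57, on the other strand, was read 5 to 10 times in each lung library.

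Of the ligands, Tgfb2 stood at 52.3, 69.0 and 64.5 CPM in WT lung and at 42.7 and 44.5 CPM in null lung 2 and 3 (log2 fold change −0.52, standard error 0.14, adjusted p = 0.0220), and at 65.7 CPM in null lung 1. Bmp4 stood at 37.9, 28.4 and 35.1 CPM in WT and 23.5, 19.7 and 24.9 CPM in the 3 null lungs, with no overlap. Its log2 fold change was −0.61 without null lung 1 (adjusted p = 0.0224) and −0.56 with it (adjusted p = 0.133). Bmp6 likewise did not overlap, at 34.6, 29.2 and 31.3 CPM in WT and 19.4, 17 and 25.4 CPM in null lung (−0.59 without null lung 1, adjusted p = 0.0359). Groups that do not overlap were found for 35.7% of all genes with the 3 null lungs. Bmp7 (−0.86) and Tgfb3 (−0.39) were also lower without null lung 1, and had log2 fold changes of 0.94 and 0.22 with it. No ligand was called higher, and Tgfb1 stood at −0.05 (standard error 0.12). Of the subunits, Inhbb stood at 13.2 and 14.7 CPM in null lung 2 and 3 against 10.4 to 15.0 CPM in WT lung, and at 4.22 CPM in null lung 1.

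Without null lung 1, 5 of 10 type I and type II receptors were called higher and 1 lower, beside 18.0% and 19.0% of all genes. Tgfbr1 stood at 90.6, 101 and 102 CPM in WT lung and at 211 and 141 CPM in null lung 2 and 3, with 103 CPM in null lung 1 (log2 fold change 0.83, standard error 0.17, adjusted p = 0.00796). Acvr2a, a type II receptor of activins, stood at 99.3 and 142 CPM against 62.4 to 74.4 CPM in WT, and at 50.3 CPM in null lung 1 (0.79, adjusted p = 0.00807). Acvr1 stood at 22.3, 27.2 and 27.8 CPM in WT and at 38.1, 40.4 and 35.5 CPM in null lung, higher in all 3 null libraries (0.54, standard error 0.13, adjusted p = 0.0171, and 0.58, adjusted p = 0.0956, with null lung 1). Bmpr1a, the BMP type I receptor ALK3, was higher in all 3 null lungs as well, at 160 and 162 CPM in null lung 2 and 3 and 227 CPM in null lung 1 against 104 to 124 CPM in WT (0.45, adjusted p = 0.0166). Acvrl1 was the receptor called lower, at 332 and 313 CPM against 396 to 436 CPM in WT (−0.38, standard error 0.10, adjusted p = 0.0198). The co-receptor Tgfbr3, betaglycan, which presents TGF-beta to its receptors, stood at 208 and 283 CPM against 99.4 to 126 CPM in WT, and at 103 CPM in null lung 1 (1.13, standard error 0.16, adjusted p = 0.00221). Tgfbr2 (0.28, adjusted p = 0.0786) did not pass the test, and Bmpr2 did (0.36, adjusted p = 0.0294).

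Among the latent binding proteins, Ltbp3 was higher (0.58, adjusted p = 0.00674) and Ltbp1 lower (−0.61, adjusted p = 0.00925) without null lung 1. The antagonists were split. Bambi stood at 32.0, 27.7 and 28.5 CPM in WT lung and at 72.9 and 76.2 CPM in null lung 2 and 3, and at 25.3 CPM in null lung 1 (1.33, standard error 0.10, adjusted p = 0.000542). Fstl1 was higher by 0.45 (adjusted p = 0.00971). Fstl3, Fst (−0.83, adjusted p = 0.0325) and Grem1 (−2.06, standard error 0.58, adjusted p = 0.0281) were lower, and Grem1 rested on 0.122 and 0.0758 CPM in null against 0.246 to 0.632 CPM in WT, close to the level of 3 reads. Nog (−0.83, adjusted p = 0.0965) did not pass the test.

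No ID gene was called in lung, and Id1 stood at 0.03 (standard error 0.13) without null lung 1. Of the 4 intracellular repressors 3 were higher without it, beside 18.0% of all genes. Skil stood at 135 and 149 CPM against 76.4 to 81.0 CPM in WT, and at 58.0 CPM in null lung 1 (0.85, standard error 0.09, adjusted p = 0.00114). Tgif1 stood at 28.8, 26.3 and 27.0 CPM in null lung against 16.2, 19.3 and 15.6 CPM in WT, with null lung 1 among the others (0.63, adjusted p = 0.00924 without it, and 0.70, adjusted p = 0.0803 with it). Smurf1 was higher by 0.42 (adjusted p = 0.0128), and Smurf2 did not pass the test (0.09, standard error 0.10).

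Of 19 other target genes tested in lung, 1 was called with all libraries and 8 without null lung 1, 3 higher and 5 lower, beside 18.0% and 19.0% of all genes, with a median of 0.06 against −0.01 over all genes. Tgfbi, an extracellular matrix protein induced by TGF-beta, stood at 401, 473 and 389 CPM in WT lung and at 126, 157 and 161 CPM in the 3 null lungs (log2 fold change −1.50, standard error 0.17, adjusted p just under 0.05 with all libraries, and −1.42, adjusted p = 0.000621, without null lung 1). Pmepa1, a TGF-beta-induced inhibitor of the pathway, stood at 61.8, 69.4 and 75.7 CPM in WT and at 26.1 and 25.5 CPM in null lung 2 and 3 (−1.43, adjusted p = 0.000603). Tgfb1i1 (−1.11) and Acta2 (−0.57) were also lower, whereas Cdkn1a (1.81), Fn1 (0.65) and Junb (0.62) were higher. Of 12 other ligands tested without null lung 1, 4 were lower, beside 19.0% of all genes, and none higher, Bmp3 (−1.70) and Gdf11 (−1.29) among them. Of 8 SMAD genes 4 were higher, beside 18.0%, and none lower in that fit, and none was called with all libraries.

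The effect of the null allele was also compared between the organs in a fit of all 12 libraries. The difference passed the test for 1 of 43 members, Fstl3, beside 0.371% of all 16155 genes. Fstl3 was higher in null liver and lower in null lung, and the log2 difference between the organs (lung minus liver) was −2.11 (standard error 0.28, adjusted p = 0.0189). The difference was −1.83 to −2.24 when each library was left out, and the call was lost without any single WT library or null lung 3. Liver and lung libraries of the same number and genotype deviated together, and this fit did not pair them. With each such pair, taken as 1 animal, as a replicate block the difference was −2.07 (adjusted p = 0.105). No member passed the test with that block. An unadjusted p under 0.05 was found for 10, and the share of all genes at that level was not computed. Without null lung 1, 4 members were called beside 5.0% of all genes, namely Fstl3 (−2.09, adjusted p = 0.00691), Inhbb (−1.84, standard error 0.36, adjusted p = 0.0199), Acvr1 (1.01, standard error 0.18, adjusted p = 0.0161) and Id2 (0.82, standard error 0.19, adjusted p = 0.0387). With null liver 1 left out as well, 3 were called beside 5.18% of all genes, namely Fstl3 (−2.23), Inhbb (−2.03) and Acvr1 (0.96), and Id2 had an adjusted p of 0.0501. With the animal as a block and both libraries left out, 5 members were called beside 6.13% of all genes. These were Fstl3, Inhbb and Acvr1 with Bmp6 and Acvr1b (0.80, adjusted p = 0.0363).

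**Figure D5:**
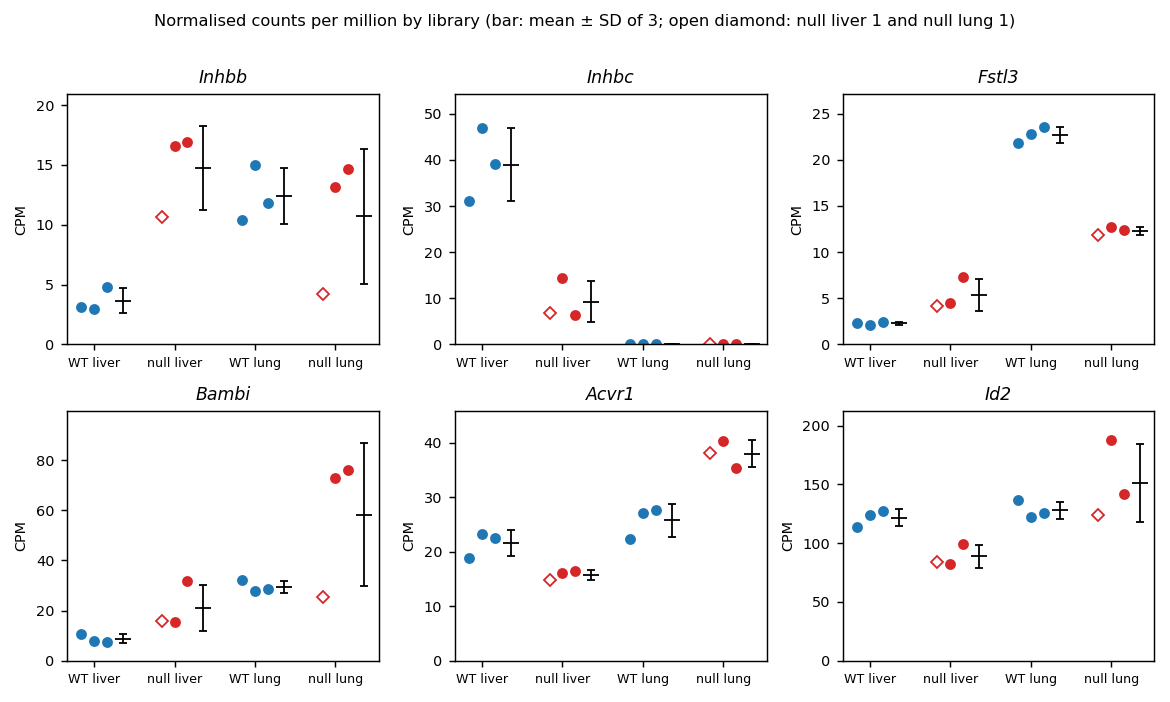
Each panel shows 1 gene, with the CPM of every library by group (blue for WT, red for null, open diamonds for null liver 1 and null lung 1) and the mean ± SD of the 3 libraries beside it. Fstl3 is higher in null than in WT liver and lower in null than in WT lung, and Acvr1 shows the reverse order. Inhbb and Inhbc separate the genotypes in liver, and Inhbc is near 0 in lung.

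Acvr1 had the order opposite to that of Fstl3. It was lower in each null liver library and higher in each null lung library than in any WT library of that organ. Id2 was lower in each null liver library, at 84.4, 82.1 and 99.7 CPM against 113 to 127 CPM, and stood at 124, 188 and 141 CPM in null lung against 123 to 136 CPM in WT lung, where null lung 1 lay within the WT range and no difference passed the test. Bambi, Skil and Tgif1 were higher in null than in WT samples in liver and, without null lung 1, in lung. Their differences between the organs without null lung 1 were 0.08 (standard error 0.38), 0.06 (standard error 0.31) and −0.14 (standard error 0.30), which did not pass the test. Each genotype gave liver and lung from 3 mice, so the values of the organs are not independent.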

How the data were processed

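Per the labels, polyadenylated RNA was made into stranded libraries and read as pairs of 75 bp. The submitters' processing notes name FastQC, STAR 2.5.2a, DESeq2 and the build mm10, and the counting program and its strand setting are not given in the sources used here. The authors deposited whole-number counts per gene symbol, with no normalization, in 1 table per library. Of 43 members, 16 have exons overlapped by a gene on the other strand in GENCODE M21 (GRCm38), which also gave exon lengths, and reads of such genes could not be told apart.

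Members, lists and comparisons were chosen with earlier results of these data known. Counts were filtered with filterByExpr and tested in R 4.3.3 with edgeR 4.0.16 (TMM factors, quasi-likelihood test, Benjamini-Hochberg adjustment over all genes tested). Genes were called at an adjusted p under 0.05 and at least 1.2-fold. Standard errors were derived from the fold change and the F statistic. Named members were the 24 called ones with the lowest adjusted p, the 4 most extreme in each direction between organs, and Tgfb1, Tgfbr1, Tgfbr2, Bmpr2 and Id1. Others, and single genes of the other lists, were named after their values were seen, and marker sums without Des or Col1a1 were added then. A target gene counted in its list is not reported by name here. Alternatives were DESeq2 1.42.0, other scalings and filters, a replicate block, and each library left out. Deviations of same-numbered liver and lung libraries correlated at 0.144 to 0.441 in all 6 pairs. Fits with these pairs as blocks were therefore run as alternatives. The main fits used no block, and the labels do not say that a number marks 1 pup. The lowest chi-square per gene between replicates was 14.7, so no library was a copy. The fits were also run on simulated counts, with less dispersion than the 0.172 fitted between null and WT lung and no library that stands apart. That run does not show how the lung and interaction fits perform on these data. Promoters are RefSeq records on GRCm38.p6, searched on both strands.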

Additional observations from a re-analysis of the deposited data

Results flagged for a closer look

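The effect of the null allele differed between lung and liver by the interaction test for Fstl3 with all 12 libraries (lung minus liver −2.11 on the log2 scale), where Fstl3 was higher in null than in WT liver and lower in null than in WT lung in all 3 libraries of each. The difference passed the test for 4 members without null lung 1, namely Fstl3 (−2.09), Inhbb (−1.84), Acvr1 (1.01) and Id2 (0.82). Inhbb was higher in null liver and did not pass the test in lung. Acvr1 was lower in null liver and, without null lung 1, higher in null lung. Id2 was lower in null liver with all libraries and did not pass the test in lung. The part of the muscle markers that set null liver 1 and null lung 1 apart was not tested.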

How the results depend on the processing

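The liver count of 11 members called was 2 to 10 when each library was left out and 5 with all 12 libraries in 1 fit. The lung count of 0 became 4 with DESeq2, 1 with at least 10 counts in every library, 4 with all 12 libraries in 1 fit, 0 to 22 with each library left out, and 24 with DESeq2 without null lung 1 (chosen after seeing the data). The count between null lung and null liver, 29, was 18 to 35 with each library left out. The lowest, 18, was without null liver 2. The interaction count of 1 became 4 with DESeq2, 2 with upper-quartile factors, 2 with at least 10 counts in every library, 0 with the replicate block, 0 to 4 with each library left out, 3 without null liver 1 and null lung 1, and 5 with that and the block (both chosen after seeing the data). The count between WT organs stayed within 1.5 times in every alternative. The number of all genes called moved as well. In liver it was 3856 (main fit), 1641 to 3451 with each library left out, and 1921 with all 12 libraries. In lung it was 51 (main fit), 2355 with DESeq2, and 0 to 5881 with each library left out. DESeq2 without null lung 1 called 6446. Between null lung and null liver it was 7096 (main fit), 4458 without null liver 2 and 9554 without null lung 1. The interaction fit called 60, and 813 without null lung 1. The cause of these changes was not tested.

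Some single log2 fold changes between null and WT changed sign. In liver, upper-quartile factors gave −0.021 for Bmpr1a and −0.044 for Id1, and leaving out each library gave −0.012 to 0.22 for Bmpr1a, −0.081 to 0.15 for Id1 and −0.041 to 0.25 for Acvr2a. In lung, the block gave −0.032 for Fst, and leaving out each library gave −0.49 to 0.15 for Inhbb, −0.61 to 0.22 for Ltbp1, −2.06 to 2.71 for Grem1, −0.063 to 0.36 for Bmpr2, −0.39 to 0.46 for Tgfb3, −0.83 to 0.88 for Fst, −0.32 to 0.28 for Tgfbr2, −0.44 to 0.52 for Bmpr1b and −0.55 to 0.028 for Id1. Between WT organs Id2 went from −0.025 to 0.073. WT and null samples share only a replicate number. A replicate block within an organ gave 8 members called in liver and 0 in lung, beside 3304 and 0 of all genes. In lung 5 members had an unadjusted p under 0.05 with the block, and the share of all genes was not computed. The block changed no count between organs beyond 1.5 times. At these depths Nog, Grem1 and Bmpr1b in liver and Inhbc and Gdf2 in lung were near the level of 3 reads.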
